A study of Sus scrofa with 9 samples.

Results

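Mitochondrial ribosomal protein genes were taken as every gene row whose symbol reads MRPL or MRPS, then digits and an optional letter. The rule uses names only and no measured value. It found 74 of 19535 gene rows, 47 MRPL genes and 27 MRPS genes, named for the large and small subunit. Cultured porcine valvular interstitial cells (PVICs), the fibroblast-like cells inside the aortic valve leaflet, were sequenced in 3 libraries for each of 3 treatments. The cells came from wild type pigs of 4 to 5 months, after collagenase digestion and swabbing to remove surface endothelium. The control group was kept in DMEM for 3 days. The OIM group received osteogenic medium with insulin, ascorbic acid at 50 µg/mL and sodium dihydrogen phosphate at 2 mmol/L, given to induce calcification. The bFGF group received the same OIM together with 50 ng/mL basic fibroblast growth factor (bFGF), given to inhibit it. Per the labels both treatments also lasted 3 days, while the study's methods give a shorter time before RNA extraction. The labels do not say whether the libraries of a group came from separate animals or cultures, so p-values measure only the spread between these samples, which may be technical.

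Mitochondria carry their own ribosomes, which translate the few membrane proteins of the respiratory chain that mitochondrial DNA encodes. All proteins of this ribosome are encoded in the nucleus, made in the cytosol and imported, where they assemble with rRNA transcribed from mitochondrial DNA. Many have a counterpart in the bacterial ribosome, and the rest were added during the evolution of mitochondria. By those known positions, 29 of the 74 genes encode large subunit proteins with a bacterial counterpart and 20 encode large subunit proteins specific to mitochondria. Small subunit proteins with and without a bacterial counterpart are encoded by 14 and 10 genes. Names and places do not always match. MRPS30 and MRPS18A encode proteins of the large subunit despite their symbols, and are counted there. MRPS36 is now known as a subunit of the 2-oxoglutarate dehydrogenase complex and is kept as the 1 member that encodes no ribosomal protein. MRPL21, MRPL41, MRPS2 and MRPS12 were not analysed here.

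Promoters of these genes are known for short, GC-rich sites of a few general factors. RefSeq gene starts of Sscrofa11.1, the build that the labels name, were matched for all 74 members, and the window from 250 bases before to 50 bases after each start was searched on both strands. The letters searched were GCGC, any base and TGCGC (NRF1, a nuclear activator of mitochondrial genes), CCGGAAG (the ETS family, which includes GABP), AANATGGCG (YY1) and CACGTG (the E-box of MYC, USF and related factors). The sites below are from members that the results turn on, and from MRPL35 to show the NRF1 letters. Each is read 5′ to 3′ on the strand of the named gene, with the match in capitals and up to 10 bases on each side.
MRPL51, ETS, chr5:64167398-64167424 (+): caatccagaaCTTCCGGtgggcagacc
MRPL58, ETS, chr12:6265852-6265878 (-): gaagcgcccaCCGGAAGcggcccagag
MRPS7, YY1, chr12:6055715-6055743 (-): cttccgcctcCGCCATATTgcagccgccc
MRPS6, E-box, chr13:197687728-197687753 (+): ttgacaacaaCACGTGggtcaggccg
MRPS27, E-box, chr16:48642608-48642633 (-): tacgcatgcgCACGTGcgaacccacg
MRPL46, YY1, chr1:191322010-191322038 (+): ggaaggttgaAAGATGGCGgcgcccgtga
MRPS11, YY1, chr1:191322010-191322038 (-): tcacgggcgcCGCCATCTTtcaaccttcc
MRPL35, NRF1, chr3:58575157-58575186 (-): caccgccactGCGCATGCGCaacctcctgt
The MRPL46 and MRPS11 lines show 1 site read on opposite strands, since these genes start 39 bases apart and point away from each other.

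Among the 74 member promoters, 39 (52.7%) held at least 1 of the 4 motifs, against 23.77% of the 19534 protein-coding promoters read. The ETS letters were in 20 members (27.03%) and in 10.99% of all promoters. The NRF1 letters were in 9 members (12.16%) and in 6.32% of all, and the YY1 letters in 7 members (9.46%) and in 2.71% of all. The E-box was in 9 members (12.16%) and in 7.92% of all. A match is a description of these letters, not a sign of binding, and no match says only that the letters are not in this window.

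Library totals over all genes were 57075793 to 64723837 counts in the control group, 57682710 to 67371523 in the OIM group and 46773376 to 48270827 in the bFGF group. Levels are given as CPM, the counts of a gene per 1000000 counts of the library total scaled by TMM, a method that sets the typical gene to no change. The factors from TMM lay between 1.10 and 1.11 for bFGF and between 0.937 and 0.967 for control and OIM, and the 10 highest genes took 8.35% to 8.45% of the bFGF counts against 12.7% to 13.7% elsewhere. Each library held 80373 to 97072 counts of members. Single tested members had 166 to 4965 counts per library. MRPL53, a large subunit protein gene, was at 0 counts in all 9 libraries. Its annotated exons lie 99.9% within exons of CCDC142 on the same strand, so its level could not be read, and 73 members were tested.

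Summed over members, the ranges of control and OIM libraries overlapped, and all 3 bFGF libraries were higher. The members together stood at 1435 to 1494 CPM in control libraries, at 1472 to 1487 CPM in OIM libraries and at 1806 to 1825 CPM in bFGF libraries. The mean sum was 1466 ± 29.5 CPM (SD, n = 3) in the control group, 1481 ± 7.79 CPM in the OIM group and 1814 ± 9.97 CPM in the bFGF group. The bFGF mean was thus 1.22 times the OIM mean. The sum of large subunit genes with a bacterial counterpart was 592 to 604 CPM in OIM and 712 to 720 CPM in bFGF libraries, and that of large subunit genes specific to mitochondria 399 to 408 CPM and 494 to 507 CPM. Small subunit genes with a bacterial counterpart summed to 235 to 243 CPM and 294 to 306 CPM, and those specific to mitochondria to 230 to 240 CPM and 286 to 295 CPM. In each of these classes the bFGF libraries lay above the OIM libraries. By symbol, MRPL genes summed to 940 to 957 CPM in OIM libraries and 1139 to 1161 CPM in bFGF libraries, and MRPS genes to 526 to 540 CPM and 664 to 671 CPM. As a share of all gene counts with no scaling, members took 0.134% to 0.143% in control, 0.139% to 0.142% in OIM and 0.199% to 0.203% in bFGF libraries. In bulk RNA, a change in the mix of cells and a change in RNA per cell cannot be told apart.

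**Figure D1:**
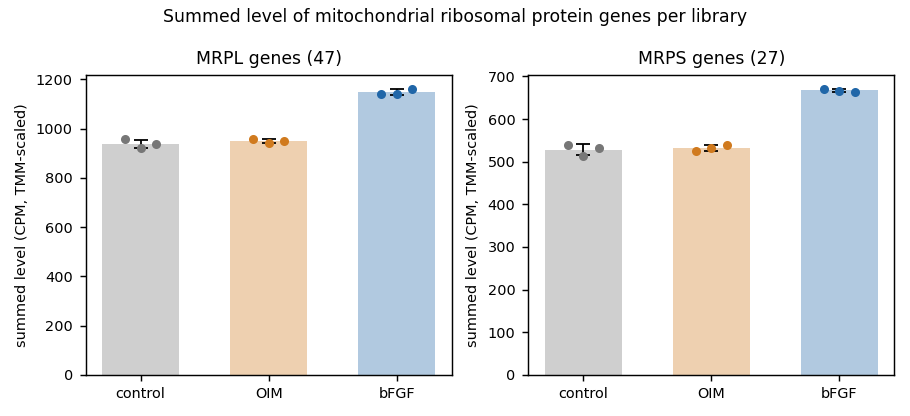
Summed level of the MRPL genes (left) and MRPS genes (right) in CPM of TMM-scaled totals, with bars for group means, error bars for SD and points for the 3 libraries of a group. The bFGF libraries, at 1139 to 1161 CPM for MRPL genes and 664 to 671 CPM for MRPS genes, lie above all control and OIM libraries.

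Markers moved with the same groups. The 10 markers of interstitial cells were all detected, and their sum was 79866 to 86180 CPM in control, 77066 to 80231 CPM in OIM and 47624 to 48603 CPM in bFGF libraries. Against OIM, bFGF libraries had 5 of these called lower and 2 called higher, with COL1A1, a chain of type I collagen, lower by a log2 fold change of -1.34. The 2 called higher were VIM, from 5695 to 9008 CPM, and S100A4, from 65.7 to 116 CPM. The fall in the sum came from COL1A1 (25047 to 9886 CPM), COL1A2 (17751 to 8849 CPM), FN1 (16061 to 10713 CPM) and COL3A1 (10893 to 6606 CPM). The 8 endothelial markers summed to 72.6 to 74.4 CPM in control, 86.8 to 87.9 CPM in OIM and 167 to 177 CPM in bFGF libraries, and 6 of them were called higher in bFGF than in OIM. Most of that sum was ERG, at 66.8 CPM in OIM and 137 CPM in bFGF. PECAM1 averaged 11.8 and 20.7 CPM, CDH5 5.80 and 8.24 CPM, TEK 0.740 and 1.52 CPM, KDR 0.169 and 1.17 CPM and CLDN5 0.0601 and 0.336 CPM in OIM and bFGF libraries. TIE1 averaged 1.85 and 2.03 CPM and VWF 0.303 and 0.228 CPM, and neither was called. The 7 leukocyte markers summed to 12.9 to 16.3, 13.9 to 15.7 and 8.48 to 9.25 CPM in the 3 groups, CD3E was at 0 in every library, and 1 (CD14) was called lower in bFGF. The part of cell mix in the member changes was not tested.

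The first comparison, OIM against control, sets libraries in calcification medium against those in DMEM. No member changed by the criteria used here. A gene is called when edgeR's quasi-likelihood test gives a Benjamini-Hochberg adjusted p of at most 0.05 over 13662 genes and the log2 fold change is at least 0.5 in size, which is 1.41-fold. Of all genes tested, 1.49% were called higher and 0.864% lower, against 0 of 73 members in either direction. At an unadjusted p under 0.05 there were 13 members (17.8%), against 26.2% of all genes, and DESeq2 also called 0. The median log2 fold change of the 73 was 0.03, and it was -0.005 without control replicate 2. The range over members ran from -0.33 to 0.23. The value was above 0 in 43 members, against 49.6% of all genes. By class, the medians were 0.03 for the large subunit with bacterial counterpart, -0.03 for the large subunit specific to mitochondria, 0.04 for the small subunit with bacterial counterpart and -0.05 for the small subunit specific to mitochondria.

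The largest increase was that of MRPL20, the counterpart of a bacterial protein needed early in large subunit assembly. It stood at 15.9, 14.1 and 15.3 CPM in control and at 17.7, 18.0 and 17.3 CPM in OIM libraries. Its groups did not overlap (11 members were so separated upward and 6 downward, against 14.5% and 14.2% of all genes), and the log2 fold change of 0.23 ± 0.07 (SE) had an adjusted p of 0.0369, the only one of the 73 past 0.05. Among all genes, 7.69% were higher and 5.87% lower at that adjusted p alone. MRPL50 and MRPS17 followed, with 0.22 ± 0.14 (adjusted p = 0.368) and 0.19 ± 0.12 (adjusted p = 0.349). MRPS21, the counterpart of a small bacterial protein of the small subunit, had the lowest value. It stood at 10.29, 10.44 and 11.03 CPM in control and 9.04, 7.69 and 8.56 CPM in OIM libraries, with no overlap. Its log2 fold change of -0.33 ± 0.11 had an adjusted p of 0.0536. MRPL47 and MRPL39 came next, at -0.22 ± 0.09 (adjusted p = 0.137) and -0.21 ± 0.08 (adjusted p = 0.0731).

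The second comparison, bFGF against OIM, sets libraries with the growth factor against those in the same medium alone. Members as a group stood higher, mostly by a small amount. Of 73 tested, 15 were called higher (20.5%) and 0 lower, where 17.7% of all genes were called higher and 18.4% lower. The share called higher was thus near that of all genes, and with this scaling is no result about the members. By adjusted p alone, 51 members were higher (69.9%) and 2 lower, against 33.8% and 33.5% of all genes. In 52 members every bFGF library exceeded every OIM library, and in 2 every one was below, against 36.3% and 35.8% of all genes. The log2 fold change was above 0 in 68 members, against 49.8% of all genes. The median was 0.32, or 1.25-fold, while the median of all genes was -0.003, so the typical member change was below the limit for a call. If libraries were scaled by their totals alone, all genes had a median of 0.22 and members one of 0.54, and 41 members (56.2%) were called higher against 27.3% of all genes.

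**Figure D2:**
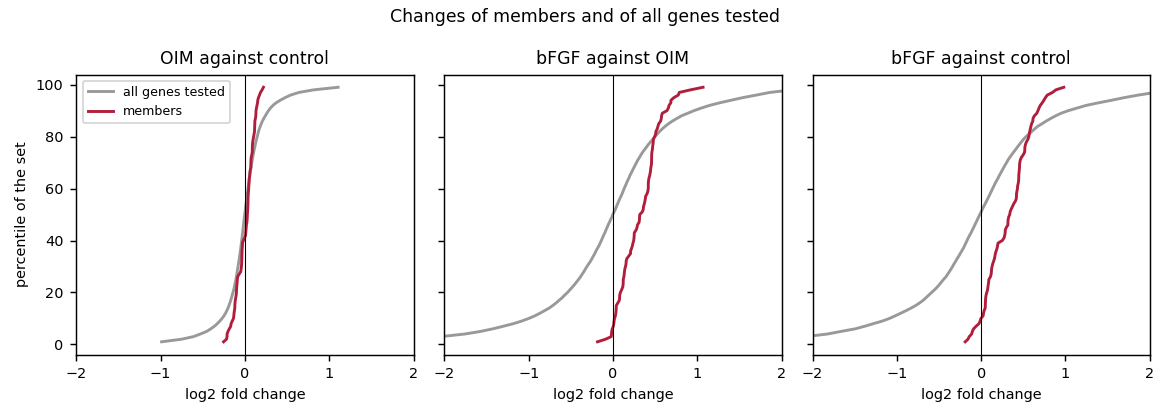
Percentiles (1 to 99) of log2 fold changes for all genes tested (grey) and the 73 members tested (red) in each comparison, with the x axis limited to -2 to 2. In OIM against control the curves cross near 0, and in bFGF against OIM the member curve lies right of the grey one over its lower part, with a median of 0.32, and is steeper.

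By class, the large subunit proteins with a bacterial counterpart had 4 of 29 called higher (13.8%) and a median log2 fold change of 0.32. Those specific to mitochondria had 3 of 19 called (15.8%) and a median of 0.39. Both shares lay below the 17.7% of all genes called higher. In the small subunit, 5 of 14 with a bacterial counterpart were called (35.7%), with a median of 0.42. Of the 10 specific to the mitochondrial small subunit, 3 were called (30.0%), yet the median was 0.15. No class had a member called lower, against 18.4% of all genes. The differences between classes were not tested.

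**Figure D3:**
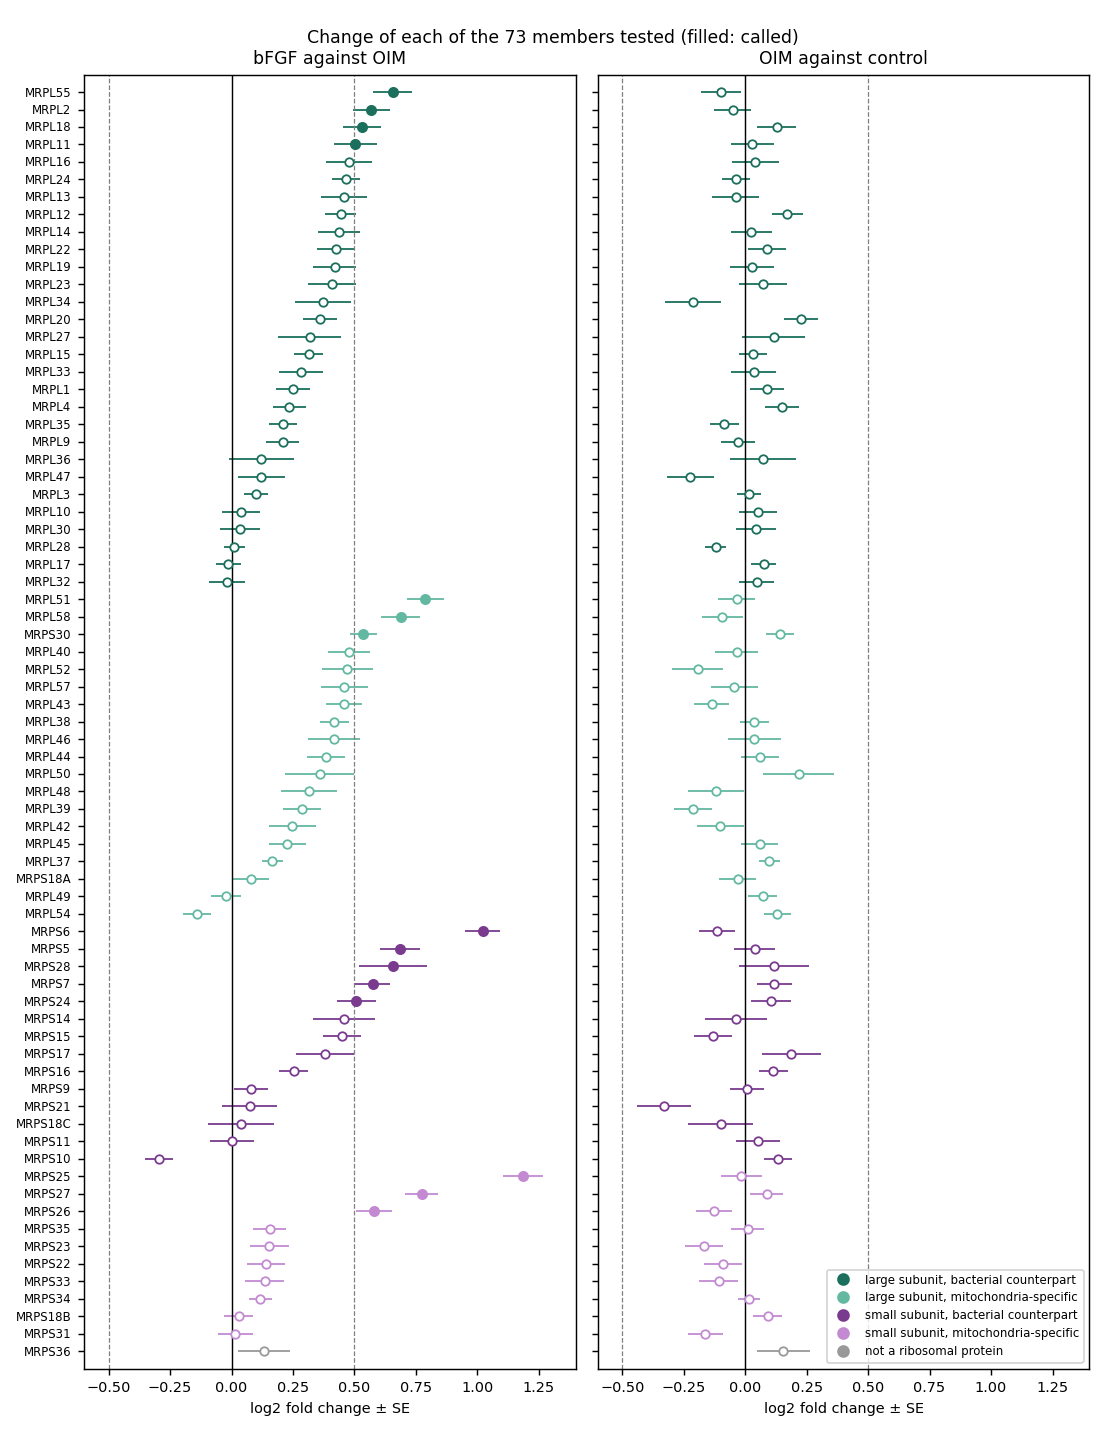
Log2 fold change ± SE of each of the 73 members, for bFGF against OIM (left) and OIM against control (right), grouped by class, with filled points for called members and dashed lines at the limit of 0.5. On the left 15 points are filled, with MRPS25 highest at 1.19, and on the right none is.

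In the small subunit, MRPS25 had the largest change. It encodes a mitochondria-specific protein in which inherited variants are known to cause a mitochondrial disease of brain and muscle. Its level was 13.3, 16.3 and 15.4 CPM in OIM and 35.7, 32.9 and 34.1 CPM in bFGF libraries, beside 13.996 to 16.6 CPM in control. The bFGF libraries lay well above all others, with a log2 fold change of 1.19 ± 0.08 (adjusted p = 7.4e-11). Of its exon bases, 27.8% overlap NR2C2 on the opposite strand, whose own log2 fold change was 0.01.

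MRPS6, a counterpart of a bacterial protein of the small subunit platform, stood at 18.7, 20.8 and 20.2 CPM in OIM and 41.0, 37.3 and 43.0 CPM in bFGF libraries. The groups did not overlap, and the log2 fold change was 1.02 ± 0.07 (adjusted p = 9.6e-11). MRPS6 shares 10.5% of its exon bases with SLC5A3, a myo-inositol transporter gene, on the same strand. SLC5A3 had a log2 fold change of 0.97 and stood at 125 CPM in OIM and 246 CPM in bFGF. Reads from the shared bases cannot be told apart in a gene count.

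MRPS27, a protein with pentatricopeptide repeats, the kind that binds RNA, stood at 24.3, 25.7 and 26.3 CPM in OIM and 42.3, 42.5 and 45.7 CPM in bFGF libraries. It rose by a log2 fold change of 0.77 ± 0.07 (adjusted p = 2.6e-09). MRPS5, whose bacterial counterpart acts in decoding accuracy, was at 14.3, 13.6 and 12.6 CPM in OIM and 21.3, 23.0 and 20.9 CPM in bFGF libraries. Its bFGF libraries all lay above the OIM and control libraries, and the log2 fold change was 0.69 ± 0.08 (adjusted p = 3.1e-07).

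MRPS28 was among the lowest members per transcript length. It rose from 6.49, 5.96 and 6.28 CPM to 10.96, 8.88 and 9.68 CPM, a log2 fold change of 0.66 ± 0.14 (adjusted p = 0.00031), with the widest error among the called members. Smaller changes were called for MRPS26 (0.58 ± 0.07), which is specific to mitochondria, and for MRPS7 (0.57 ± 0.07), whose counterpart organises the head of the bacterial small subunit. For MRPS7, 88.7% of exon bases overlap GGA3 on the opposite strand, at a log2 fold change of 0.27. MRPS24, a counterpart of a bacterial protein at the mRNA entry, was called at 0.51 ± 0.08. MRPS24 fell below the fold limit without bFGF replicate 2 (0.49) or OIM replicate 1 (0.49).

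In the large subunit, MRPL51, a mitochondria-specific protein, led. It stood at 18.0, 19.4 and 19.9 CPM in OIM and 33.2, 31.8 and 33.9 CPM in bFGF libraries. All bFGF libraries exceeded all others, and the log2 fold change was 0.79 ± 0.07 (adjusted p = 1.2e-08). MRPL58, a peptidyl-tRNA hydrolase that can free stalled chains and is also built into the large subunit, stood at 12.01, 11.93 and 10.47 CPM in OIM and 18.9, 18.9 and 17.6 CPM in bFGF libraries. It rose by 0.69 ± 0.08 on the log2 scale (adjusted p = 2.6e-07).

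MRPL55 was at 10.6, 10.9 and 11.3 CPM in OIM and 17.5, 16.6 and 17.4 CPM in bFGF libraries, a log2 fold change of 0.66 ± 0.08 (adjusted p = 4.3e-07). MRPS30, which sits in the large subunit, rose from 31.2, 31.5 and 32.0 CPM to 47.1, 44.8 and 45.5 CPM, with a log2 fold change of 0.54 ± 0.06 (adjusted p = 3.8e-08). MRPL2, whose counterpart lies near the peptidyl transferase centre, was called at 0.57 ± 0.08, and MRPL18, a counterpart of a protein that binds ribosomal RNA in bacteria, at 0.53 ± 0.08. MRPL11, from the base of the stalk where translation factors dock, lay just inside the limit at 0.50 ± 0.09. MRPL18 lost its call without OIM replicate 1 (0.47), and MRPL11 without bFGF replicate 2 (0.44) or OIM replicate 3 (0.46). The 12 called members other than MRPL11, MRPL18 and MRPS24 kept their call whichever of the 9 libraries was removed.

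**Figure D4:**
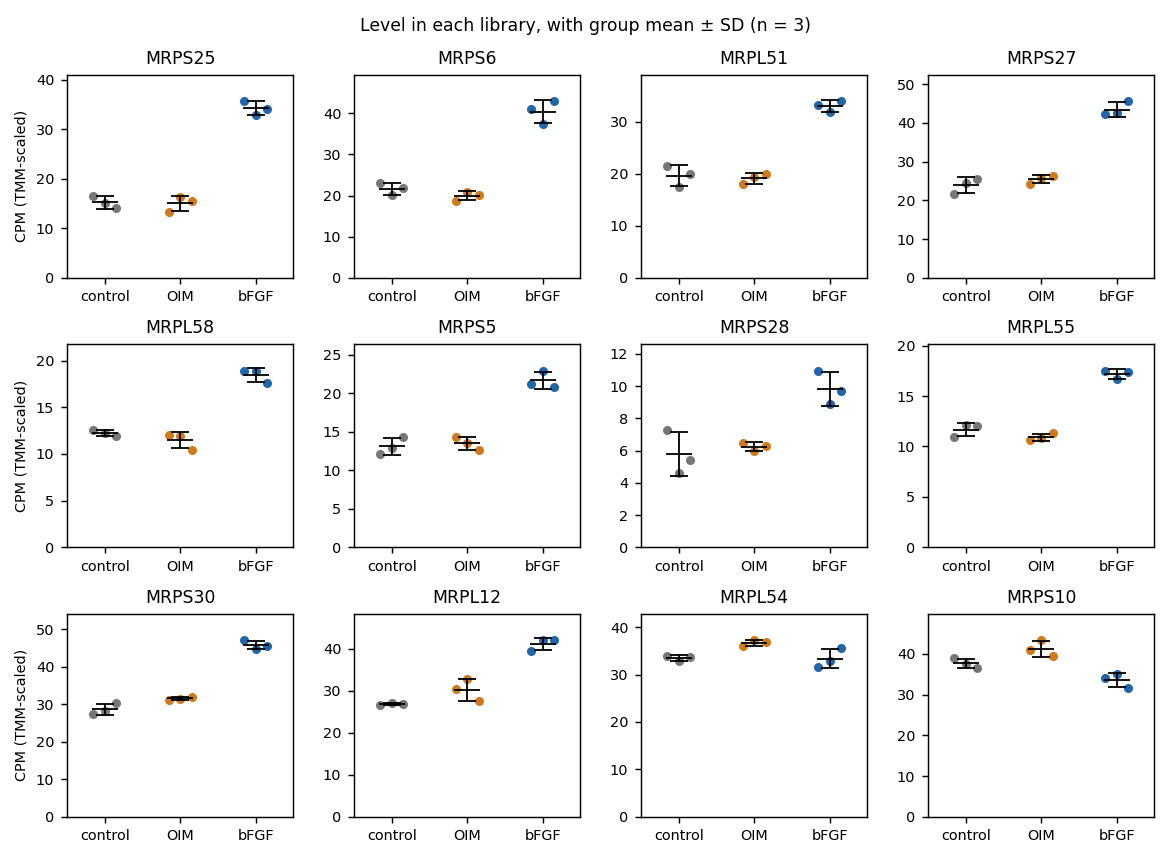
Level in CPM of TMM-scaled totals in each of the 3 libraries per group (points), with mean and SD (bars), for 12 members: 9 called higher in bFGF than in OIM, MRPL12, and the 2 lower at adjusted p alone. For MRPS25 the bFGF libraries lie at 32.9 to 35.7 CPM against 13.3 to 16.3 CPM in OIM, and for MRPS10 they lie below the OIM libraries.

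Below the fold limit, 36 members were higher at adjusted p alone, and 16 of them had log2 fold changes from 0.4 to 0.5. MRPL12, the stalk protein that is also known to bind the mitochondrial RNA polymerase, was one. Its level was 30.3, 32.8 and 27.5 CPM in OIM and 39.4, 42.1 and 42.0 CPM in bFGF libraries, with a log2 fold change of 0.44 ± 0.06 (adjusted p = 3.4e-06). The groups did not overlap.

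The 5 lowest members were MRPS10, MRPL54, MRPL49, MRPL32 and MRPL17. MRPS10, a counterpart of a protein of the head of the bacterial small subunit, was the clearest exception to the common direction. It stood at 41.0, 43.4 and 39.4 CPM in OIM and 34.18, 35.04 and 31.65 CPM in bFGF libraries. All bFGF libraries were below all OIM libraries, and the log2 fold change of -0.30 ± 0.06 had an adjusted p of 0.00013, under the fold limit for a call. MRPL54, specific to mitochondria, stood at 36.1, 37.3 and 36.8 CPM in OIM and 31.6, 32.8 and 35.5 CPM in bFGF libraries. It had -0.14 ± 0.06 (adjusted p = 0.0333), and scaled by library totals alone its sign turned, to 0.081. MRPL49, MRPL32 and MRPL17 had log2 fold changes of -0.02 ± 0.06, -0.02 ± 0.07 and -0.01 ± 0.05, with adjusted p of 0.768, 0.844 and 0.823, and all 3 turned positive on that scale.

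The 3 genes that descend from 1 bacterial protein, S18, did not pass the test in bFGF against OIM. MRPS18A, in the large subunit, had a log2 fold change of 0.08 ± 0.08 (adjusted p = 0.370). MRPS18B and MRPS18C, which occupy different places in the small subunit, had 0.03 ± 0.06 (adjusted p = 0.678) and 0.04 ± 0.13 (adjusted p = 0.819). MRPS36, the dehydrogenase subunit, had 0.13 ± 0.11 (adjusted p = 0.287).

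The third comparison, bFGF against control, uses the same bFGF libraries as the second and is no separate test of bFGF. Of 73 members, 20 were called higher (27.4%) and 0 lower, where 18.9% of all genes were called higher and 20% lower, and the median log2 fold change was 0.34. At adjusted p alone, 48 were higher and 3 lower, against 34.5% and 35.7% of all genes. The value was above 0 in 65 members, against 49% of all genes. In 50 members every bFGF library exceeded every control library, and in 3 every one was below, against 36.4% and 37.3% of all genes. MRPS25 stood at 1.17 ± 0.08, MRPS6 at 0.91 ± 0.07, MRPS27 at 0.86 ± 0.07, MRPS28 at 0.77 ± 0.14 and MRPL51 at 0.75 ± 0.07. MRPS5, MRPS7, MRPS30, MRPL18, MRPS24, MRPL58, MRPL55, MRPL11 and MRPL2 were called between 0.52 and 0.73.

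Also called against control were MRPL12 (0.62 ± 0.06), MRPL20 (0.59 ± 0.07), MRPL50 (0.58 ± 0.14), MRPS17 (0.57 ± 0.12), MRPL16 (0.52 ± 0.09) and MRPL22 (0.51 ± 0.08). MRPL16 and MRPL22 are counterparts of bacterial proteins near the tRNA sites and the exit tunnel. MRPS26, with 0.45 ± 0.07, was not. Of the 20, 15 were called in all 9 fits without 1 library. The call was lost for MRPL11 without bFGF replicate 2 (0.47), MRPS17 without bFGF replicate 3 (0.46), MRPL16 without bFGF replicate 3 (0.49) or control replicate 2 (0.49), MRPL2 without bFGF replicate 3 (0.49) or control replicate 3 (0.47), and MRPL22 without bFGF replicate 1 (0.49) or control replicate 2 (0.44). The 3 members lower at adjusted p alone were MRPS21 (-0.26 ± 0.11), MRPS10 (-0.16 ± 0.06) and MRPL28 (-0.11 ± 0.04).

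Levels can be compared between members only per length, here as CPM per kilobase of the median RefSeq transcript. On that scale, ranked by the mean over all 9 libraries, the highest was MRPL37, at 50.0 in control, 53.6 in OIM and 60.1 in bFGF. MRPS34 followed at 50.3, 50.9 and 55.2, and MRPL17 at 49.5, 52.2 and 51.7. The lowest were MRPS14 at 2.66, 2.60 and 3.56, MRPS28 at 2.33, 2.52 and 3.97, and MRPL50 at 1.12, 1.30 and 1.66. The median member over all 9 libraries was at 14.9, and the highest stood 40.1 times above the lowest, although most of these proteins are known to sit in the ribosome as single copies. The annotated length of some members includes long transcript variants, and this scale moves with it.

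**Figure D5:**
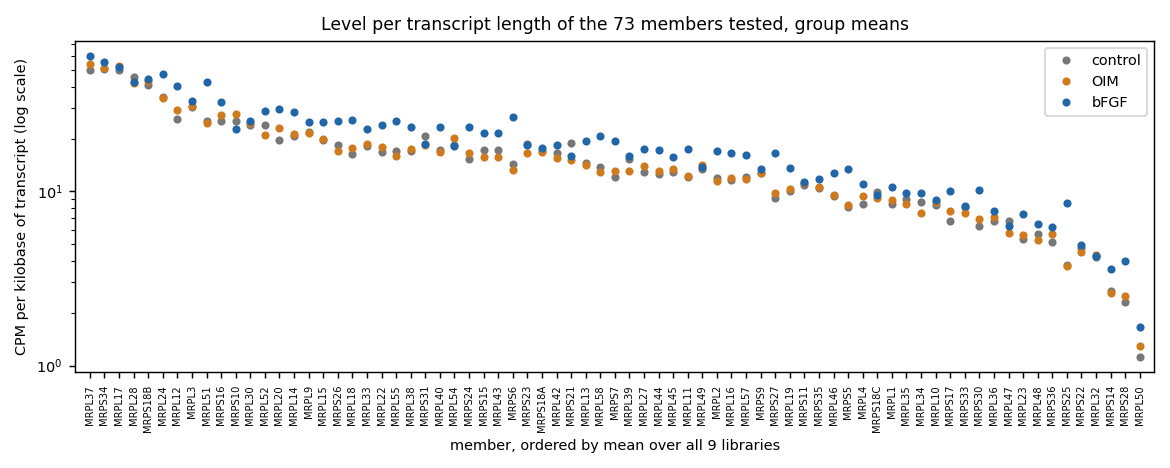
Group mean level per transcript length (CPM per kilobase, log scale) of the 73 members tested, ordered by the mean over all 9 libraries. The values run from 60.1 for MRPL37 in bFGF down to 1.12 for MRPL50 in control, and the groups differ far less than members do.

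Gene neighbourhood bears on how far a count belongs to 1 gene. Exons of 20 members overlap those of another gene, in 11 by at least 10% of the member's exon bases, and the sources used here do not give the strand setting of the counting. Of the 15 members called in bFGF against OIM, 8 have no such overlap and 4 (MRPL2, MRPS6, MRPS7 and MRPS25) overlap by at least 10%. Among the 54 tested members with no overlap the median log2 fold change was 0.31. These are most of the 73 behind the median of 0.32, so the medians are bound to be near. The part of overlap in the member changes was not tested. MRPL43 (0.46 ± 0.07) lies 100% within exons of TWNK, the mitochondrial DNA helicase, on the opposite strand, and TWNK stood at 1.08. In OIM, MRPL43 stood at 21.2 CPM and TWNK at 7.70 CPM, while MRPL53, on the same strand as CCDC142, had 0 counts. How strands were counted was not tested, so the value of MRPL43 is uncertain. The same holds for MRPS18C, whose exon bases overlap ABRAXAS1 by 53.5% and HELQ by 22.3% on the opposite strand. Their log2 fold changes were 0.14 and 0.04. It holds too for the called MRPS7, which overlaps GGA3 by 88.7% (0.27) and MIF4GD by 6.8% (-0.60) on the opposite strand. MRPS22 overlaps COPB2 by 35.4% (-0.31), MRPL57 overlaps SKA3 by 32.8% (0.999) and MRPL47 overlaps ACTL6A by 27% (0.72). MRPL49 overlaps FAU by 23.3% (0.05) and MRPL2 overlaps KLC4 by 16.9% (-0.39). These overlaps all lie on the opposite strand and carry the same limit. MRPL57 itself had a log2 fold change of 0.46 and is among the members higher at adjusted p alone.

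Many members start close to a neighbour that is read in the opposite direction. A start within 1000 bases, head to head, was found for 18 of 74 members (24.32%) and for 9.8% of 19535 protein-coding genes. Several such neighbours changed more than the member in bFGF against OIM. MRPL51 starts 8 bases from NCAPD2, a subunit of the condensin complex of mitotic chromosomes, at a log2 fold change of 1.64 ± 0.08. MRPL13 (0.46) starts 217 bases from MTBP, at 2.14 ± 0.12, and MRPL22 (0.43) starts 118 bases from GEMIN5, an RNA-binding protein of the SMN complex, at 0.95 ± 0.06. MRPL27 (0.32) overlaps the start of EME1, a DNA repair nuclease subunit, at 1.76 ± 0.11. Others had values nearer each other or the reverse order. MRPL18 (0.53) lies by TCP1, a chaperonin subunit, at 0.43 ± 0.04, and MRPL55 (0.66) by GUK1, guanylate kinase, at 0.37 ± 0.07. Some neighbours had values below 0. These were LRRC46 by MRPL10 (-1.87 ± 0.83, at only 0.212 CPM in OIM) and MITD1 by MRPL30 (-0.23 ± 0.15). The others were LOC100622386 by MRPL37 (-0.14 ± 0.08), EME2 by MRPS34 (-0.07 ± 0.13) and ZNF189 by MRPL50 (-0.02 ± 0.09). None of these was called, and all remaining neighbours had values above 0.

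MRPL46 and MRPS11 share 1 start region, whose YY1 letters are printed above. MRPL46 stood at 9.89, 9.36 and 9.82 CPM in OIM and 10.96, 14.34 and 13.54 CPM in bFGF libraries, with a log2 fold change of 0.42 ± 0.11 (adjusted p = 0.0018). MRPS11 stood at 13.36, 13.98 and 12.27 CPM and at 12.7, 14.3 and 12.7 CPM, with 0.004 ± 0.09 (adjusted p = 0.974). The ratio of MRPL46 to MRPS11 counts within a library needs no scaling. It was 0.740, 0.670 and 0.800 in OIM and 0.862, 1.0 and 1.07 in bFGF libraries, so the groups did not overlap. The pair was chosen after its values were seen, so no test is given.

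Among the 15 called members, the ETS letters were in 4 promoters, the YY1 letters in 2, the E-box in 3 and the NRF1 letters in 0. Among the 58 tested members that were not called, those numbers were 16, 5, 6 and 9. These counts are given as a description with no test.

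Other parts of mitochondrial gene expression were read from lists of known genes. In OIM against control, edgeR called 0 genes of any of these lists, while 26.2% of all genes had an unadjusted p under 0.05. That share was 48.7% (37 of 76) for cytosolic ribosomal proteins, 33.3% (4 of 12) for transcription and RNA processing, 31.6% (6 of 19) for the enzymes that charge tRNA, and 0% to 22.2% for the other lists. In bFGF against OIM none of these lists had a gene called lower, and each count called higher is to be read against the 17.7% of all genes. The differences between lists were not tested. Of 5 tested ribosomal proteins with other symbols, 2 were called higher, and the median was 0.50. They were PTCD3 (0.80 ± 0.05), a pentatricopeptide protein of the small subunit, and GADD45GIP1 (1.10 ± 0.25), a large subunit protein. DAP3, a GTP-binding protein of the small subunit, went the other way, from 59.7 CPM in OIM to 50.4 CPM in bFGF, with a log2 fold change of -0.25 and an adjusted p of 8.9e-05, under the fold limit. Of 22 assembly factors, 4 were called (18.2%, near the share of all genes), with a median of 0.17 over the list. They were the rRNA methyltransferase MRM3 (0.87 ± 0.09), the RNA helicase DHX30 (0.62 ± 0.06), MPV17L2 (0.61 ± 0.09) and METTL15 (0.59 ± 0.14).

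Of 14 translation factors and related proteins, 3 were called (21.4%, near the share of all genes), with a median of 0.11. They were LRPPRC (0.75 ± 0.04), which stabilises mitochondrial mRNA, its partner SLIRP (0.51 ± 0.10) and the elongation factor GFM1 (0.55 ± 0.05). The enzymes that charge mitochondrial tRNA had 9 of 19 called (47.4%), with a median of 0.40. Among them were AARS2 (1.5 ± 0.13), NARS2 (0.77 ± 0.09) and FARS2 (0.75 ± 0.10), which charge tRNA with alanine, asparagine and phenylalanine. Of 12 genes of mitochondrial transcription and RNA processing, 3 were called (25%), with a median of 0.20. They were the transcription factor TFB2M (0.90 ± 0.11), the tRNA-processing enzyme ELAC2 (0.83 ± 0.06) and the RNA-degrading enzyme PNPT1 (0.67 ± 0.05).

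Nuclear genes of the respiratory chain encode the partners of the proteins that mitochondrial ribosomes make. Of 64 tested, 1 was called higher, ATP5L (0.88 ± 0.05), a subunit of ATP synthase. Their median was 0.23, 43 were higher and 0 lower at adjusted p alone, and in 50 every bFGF library exceeded every OIM library, where 33.8% of all genes were higher and 33.5% lower at adjusted p alone and 36.3% lay fully above. Their summed level in bFGF was 1.22 times that in OIM, as for the members. Cytosolic ribosomal protein genes, added after the member values were seen, had 0 of 76 called, 60 higher and 2 lower at adjusted p alone (against the same 33.8% and 33.5% of all genes), and a median of 0.14. Of 9 regulators of nuclear genes for mitochondria, 1 was called and the median was 0.26. It was the coactivator PPARGC1A, at only 0.179 CPM in OIM and 0.605 CPM in bFGF. Genes encoded in mitochondrial DNA were not analysed here.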

How the data were processed

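RNA of PVICs in 3 groups of 3 libraries was sequenced as paired-end reads. The labels name a stranded total RNA kit with rRNA removal, and the submitters' processing notes name Trimmomatic, HISAT2, StringTie and Sscrofa11.1. The paper's methods describe poly-A selection with Cutadapt and STAR on susScr11 instead. The counting program and its strand setting are not given in the sources used here. The authors deposited 1 table of estimated counts without normalization, whole numbers for genes and circRNAs and not always whole for non-coding transcripts. The gene counts were used as deposited. Its 19 unnamed columns hold no values and were not used.

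Groups and replicate numbers came from the labels. The main test was the quasi-likelihood test of edgeR 4.0.16 (R 4.3.3) after filterByExpr and TMM, with all 9 libraries in 1 fit and 6 residual degrees of freedom. P-values were adjusted by Benjamini-Hochberg for the 13662 genes tested. The SE is the log2 fold change divided by the square root of F. Replicates varied by a common biological coefficient of 0.0602, so for members the spread between libraries is limited mainly by replicates and, at low counts, by counting. No 2 libraries agreed within sampling noise. DESeq2 1.42.0 and other settings were alternatives.

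Named members are those called in any comparison, the 8 highest and 5 lowest in bFGF against OIM, the 3 highest and 3 lowest in OIM against control, MRPS18A, MRPS18B, MRPS18C, MRPS30, MRPS36 and MRPL12, the 3 highest and 3 lowest per length and, in each list, up to 4 called genes, of which 1 is not reported here. MRPL10, MRPL13, MRPL27, MRPL28, MRPL30, MRPL35, MRPL43, MRPL46, MRPL53, MRPL57, MRPS11, MRPS22, DAP3 and the genes that overlap or neighbour members were named for position, overlap or value after these were seen. The members and lists were chosen with earlier results of these data known. Promoters, lengths and neighbours came from RefSeq annotation of Sscrofa11.1.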

Additional observations from a re-analysis of the deposited data

How the results depend on the processing

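The replicate numbers showed no sign of pairing the libraries. Deviations of same-numbered libraries from their group means correlated at -0.032 to 0.0035. In 0 of 9 look-ups over the comparisons did a library match its own number best. With 3 libraries per group, this cannot tell whether cultures were matched. With a replicate block, 15, 20 and 0 members were called higher in bFGF against OIM, bFGF against control and OIM against control, 0 were called lower, and the medians were 0.32, 0.34 and 0.03, so the block changed no count.

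Scaling by library totals alone raised the median over all genes to 0.22 and 0.21. The member median was then 0.54 in bFGF against OIM and 0.56 against control, and 41 and 43 members (56.2% and 58.9%) were called higher, against 27.3% and 28.8% of all genes. Without a fold limit, 51 and 48 were higher and 2 and 3 lower, and 1 was higher in OIM against control. With a log2 limit of 1, 2 and 1 remained called higher.

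In bFGF against OIM, library totals turned the sign of MRPL17 (0.21), MRPL32 (0.20), MRPL49 (0.20) and MRPL54 (0.081), and thinning to the smallest total that of MRPL17 (0.0072) and MRPS18C (-0.00459). Leaving out 1 library, values ran from -0.037 to 0.018 for MRPL17, -0.050 to 0.0079 for MRPL32, -0.055 to 0.0055 for MRPL49, -0.074 to 0.12 for MRPS18C and -0.038 to 0.18 for MRPS21, the member medians from 0.30 to 0.36 in bFGF against OIM, 0.32 to 0.36 against control and -0.0051 to 0.032 in OIM against control, where the sign turned without control replicate 2, and the counts called higher from 14 to 19 in bFGF against OIM and from 18 to 22 against control. None of these members was called in the reported fit. All other settings, including DESeq2, 2 filters on low counts and fits of 2 groups, gave counts of called members within 1.5 times those reported. Depth limits members such as MRPL50 and MRPS28, and 3 libraries per group limit all of them.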

Other observations

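Circular RNAs with both ends inside a member were listed for 9 members, 10 in all, with 2 to 23 counts summed over the 9 libraries and at most 6 in 1 library. The highest totals were 23 counts for MRPS35, 21 for MRPS5 and 19 for MRPL42. In MRPS5, the circRNA with 21 counts had 0, 4 and 5 counts in control, 3, 3 and 3 in OIM, and 0, 0 and 3 in bFGF libraries, which is too few for a comparison.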
